A study of Mus musculus with 9 samples.

Results

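The 39 genes described here encode proteins that sense DNA damage, relay the signal or repair the lesion. They were chosen by name, as damage checkpoint kinases and genes of strand-break, excision and mismatch repair, to ask whether Cre recombinase in the lens was accompanied by a change in this machinery. The rule uses names and no measured value, but the list was drawn up with earlier results of these data known. All 39 were among the 47729 genes listed in the deposited tables, and all 39 were among the 15557 genes with enough reads to be tested. RNA-Seq of polyadenylated RNA had been performed on whole newborn lenses of 3 groups of mice on the *FVB/N* background. The first was wild-type *FVB/N*, the second was hemizygous for the *P0-3.9GFPCre* transgene, and the third was hemizygous for the *Le-Cre* transgene. Each line had 3 pools of 6 lenses from 3 mice, so the spread between pools is a spread between averages of several animals. Both transgenes came from zygote microinjection and use a *Pax6* P0 promoter fragment with the ectodermal enhancer, which drives CRE in the lens placode and later in the lens epithelium. *P0-3.9GFPCre* makes a GFP-CRE fusion protein, whereas *Le-Cre* makes CRE and GFP as separate proteins. The labels name no floxed allele in any group, so a comparison with *FVB/N* covers CRE, GFP and the insertion site together. These cannot be told apart here.

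A double-strand break is recognised by the MRE11-RAD50-NBN complex and activates the kinase ATM, while single-stranded DNA coated by replication protein A activates ATR. These kinases phosphorylate histone H2AX around the lesion and the checkpoint kinases CHK1 and CHK2, and the break is rejoined by end joining or copied back by homologous recombination. Much of this response runs through phosphorylation, ubiquitination and recruitment of proteins that are already present, so transcript levels describe the stock of the machinery and not its activity. In the lens, dividing cells lie in the anterior epithelium, and the fiber cells that make up most of the organ leave the cell cycle and later degrade their nuclei.

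Total expected counts, which are estimated reads per gene, ranged from 20670968 to 28098059 per pool. Crystallin genes took 39.1% to 43.0% of them, and the 8 lens fiber markers were all detected, with summed TPM (a level per transcript length, scaled to the library) between 138608 and 166153. The 5 lens epithelial markers summed to 151 to 160 TPM in *FVB/N*, 133 to 152 in *P0-3.9GFPCre* and 123 to 142 in *Le-Cre*. In whole lenses, fewer cells of a type and less RNA per cell cannot be told apart. Markers of erythroid cells overlapped between lines (85.1 to 263 TPM over all pools), and those of macrophages, retina, mesenchyme, pigment cells and surface ectoderm summed to at most 4.67 TPM in any pool, with *Krt12*, *Krt14* and *Kera* at 0 in all pools. The Y-linked share of the counts differed between pools, from 121 to 193 CPM in *FVB/N*, 1.66 to 135 CPM in *P0-3.9GFPCre* and 0.602 to 74.2 CPM in *Le-Cre*, so line and the sex ratio of the pools were not independent. Endothelial markers summed to 19.6 to 39.7 TPM with overlap between the lines. The part of these marker differences in the results was not tested, except that the Y-linked share was tried as a covariate.

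The damage genes of the *FVB/N* lens covered a wide range in TPM, from 0.56 to 48.4 (mean of 3 pools). The highest was *Trp53bp1*, whose product 53BP1 channels breaks toward end joining, at 49.9, 52.0 and 43.4 TPM in the 3 *FVB/N* pools. *Rpa1*, the large subunit of replication protein A, followed with 25 ± 2.2 TPM (SD, n = 3), and *Parp1*, the main poly(ADP-ribose) polymerase of strand breaks, with 23.7 ± 3.5 TPM. The spreads of these 2 genes overlapped, so their order is not resolved. *Lig3*, the ligase of single-strand break repair, had 17.0 ± 2.2 TPM, *H2afx*, the histone variant H2AX, 15.3 ± 1.3 TPM and *Xpa*, which verifies bulky lesions in nucleotide excision repair, 14.4 ± 2.8 TPM. These values also overlapped. At the low end stood *Bard1*, the partner of BRCA1, with 0.56, 0.48 and 0.65 TPM, then *Palb2*, which bridges BRCA1 and BRCA2, with 0.80, 0.77 and 0.53 TPM, *Ddias*, named as a suppressor of damage-induced apoptosis, with 0.83, 0.65 and 0.92 TPM, and *Fancd2*, a Fanconi anaemia protein, with 1.05, 0.98 and 0.72 TPM. The pools of *Palb2*, *Ddias* and *Fancd2* overlapped with one another. The plot of TPM by pool shows that for most genes the 9 pools lay close together beside the spread between genes.

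**Figure D1:**
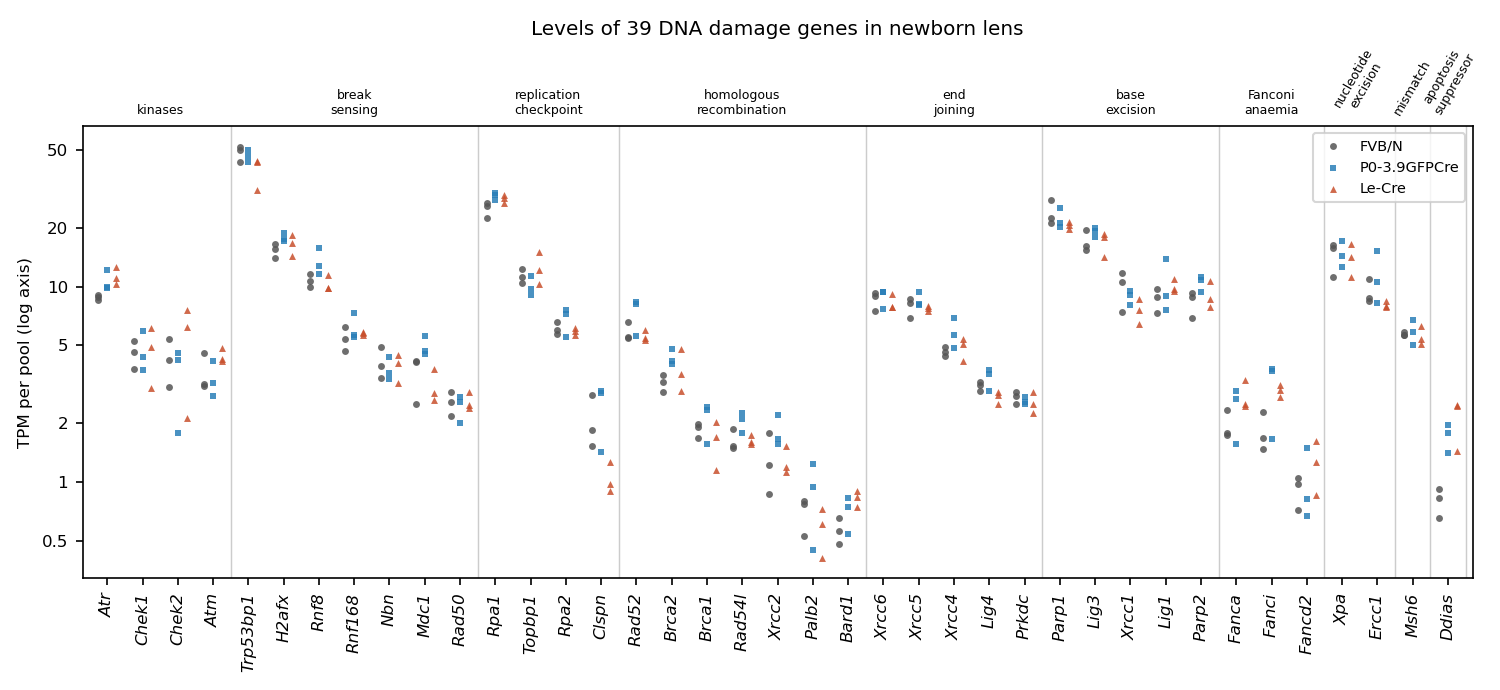
TPM of each of the 39 genes in each of the 9 pools (log axis, 1 point per pool, 3 pools per line), with genes grouped by role and ordered by their *FVB/N* mean within a role. The range runs from *Bard1* at 0.56 TPM to *Trp53bp1* at 48.4 TPM (*FVB/N* means) and, for *Ddias*, the points of both Cre lines sit above those of *FVB/N*.

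Summed over all 39 genes, the level was 300.5 ± 14.3 TPM in *FVB/N*, 325 ± 8.8 TPM in *P0-3.9GFPCre* and 298 ± 11.7 TPM in *Le-Cre* (SD, n = 3). The *FVB/N* sums were 302, 314 and 286 TPM, the *P0-3.9GFPCre* sums 332, 328 and 315 TPM, and the *Le-Cre* sums 289, 311 and 293 TPM. The *P0-3.9GFPCre* sums were thus above the *FVB/N* sums by a narrow margin, and the *Le-Cre* sums lay among them. By role, homologous recombination genes summed to 15.2, 14.95 and 15.3 TPM in *FVB/N* and to 17.0, 20.4 and 20.2 TPM in *P0-3.9GFPCre*, against 14.4, 15.9 and 15.6 TPM in *Le-Cre*. Fanconi anaemia genes summed to 5.13, 4.79 and 4.13 TPM in *FVB/N*, 6.86, 5.14 and 7.28 TPM in *P0-3.9GFPCre* and 7.04, 7.34 and 6.52 TPM in *Le-Cre*. The sums of both Cre lines were above all *FVB/N* sums for the Fanconi genes (5.14 against 5.13 TPM at the closest), and those of *P0-3.9GFPCre* alone for homologous recombination. Sums of TPM depend on the lengths that RSEM assigned to each gene in each pool, which are described further on, and the comparisons between lines therefore rest on counts.

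Each Cre line was compared with *FVB/N*, and the Cre lines with each other, by edgeR's quasi-likelihood test on the counts of all 9 pools. A gene was called where its fold change reached 1.5 and its p, adjusted by Benjamini-Hochberg over all 15557 genes, did not exceed 0.05. The comparisons of both Cre lines with *FVB/N* share the *FVB/N* pools, so their values are given side by side and do not count as independent. In *Le-Cre* against *FVB/N*, 0 of the 39 genes were called, where 0.0643% of all tested genes were. DESeq2 called 0 of the 39 when its fold changes were shrunk by a prior (0.0683% of the genes to which it gave an adjusted p) and 1, *Ddias*, when they were not (0.347%). Without the filter on low counts edgeR also called 1, *Ddias*, and 0.471% of all genes. An unadjusted p under 0.05 was found for 6 of 39, against 7.94% of all genes, and 3 of these had a higher value in *Le-Cre* (*Ddias*, *Fanci*, *Bard1*) and 3 a lower one (*Xrcc1*, *Lig4*, *Trp53bp1*). The 3 pools of 1 line all lay above or below the 3 of the other in 11 genes (7 above and 4 below), against 13.5% of all genes. The median log2 fold change over the 39 genes was −0.01, and over all tested genes −0.00.

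In *P0-3.9GFPCre* against *FVB/N*, 0 of 39 genes were called by edgeR, and the share of all genes called by edgeR was 0%. DESeq2 called 0 as well, but it gave an adjusted p to only 4394 of the 15557 genes there. It called 0.0228% of these with the prior and 0.091% without. Genes without an adjusted p, such as *Ddias*, could not be called by DESeq2, and the members that had one were not counted. An unadjusted p under 0.05 was found for 2 genes, *Ddias* and *Rpa1*, both with a higher value in *P0-3.9GFPCre*, against 6.81% of all genes. Pools did not overlap for *Ddias* and *Lig1*, both above *FVB/N*, against 12% of all genes. The median log2 fold change of the 39 genes was 0.09 and that of all genes 0.00, with 24 of 39 above 0.

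With the Cre lines joined against *FVB/N*, edgeR called 0 of 39 (0% of all genes), and DESeq2 called 0 with a prior (0.0149%) and 1, *Ddias*, without (0.269% of the genes with an adjusted p). An unadjusted p under 0.05 was found for 5 genes (*Ddias*, *Fanci*, *Lig1* and *Rpa1* with higher values, *Xrcc1* with a lower one), against 7.21% of all genes. The 6 Cre pools all lay above the 3 *FVB/N* pools for *Ddias* and *Lig1*, which is 2 of 39 genes, where 3.51% of all genes did not overlap. The median log2 fold change was 0.03.

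A p above the threshold does not show that a level was equal, so the 95% intervals of the fold changes were examined as well. All counts are of whole lenses, which are mostly fiber cells. The calls and intervals therefore do not bound a change confined to the epithelium, where these promoters drive CRE. For 34 of 39 genes the interval of *Le-Cre* against *FVB/N* lay within 1.5-fold in either direction, which was so for 58.5% of all tested genes. The 5 exceptions were *Ddias*, *Fanci*, *Bard1*, *Fanca* and *Palb2*. In *P0-3.9GFPCre* against *FVB/N* the interval lay within those limits for 31 of 39 genes (58.9% of all genes), and for both lines together for 34 of 39 (63.4% of all genes). The width of an interval depends in part on read depth, and the tested genes were not matched to the 39 for depth. These shares therefore do not show that the damage genes were steadier than other genes, which was not tested. The genes outside the limits in *P0-3.9GFPCre* were *Ddias*, *Fanci*, *Bard1*, *Palb2*, *Clspn*, *Chek2*, *Xrcc2* and *Ercc1*. These 8 genes were read at a low depth, with means of 39.6 (*Palb2*) to 183 (*Ercc1*) expected counts per pool, against 2300 for *Trp53bp1*. Other genes of like depth lay within the limits there, such as *Fancd2* (95.6), *Rad54l* (120) and *Chek1* (147).

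**Figure D2:**
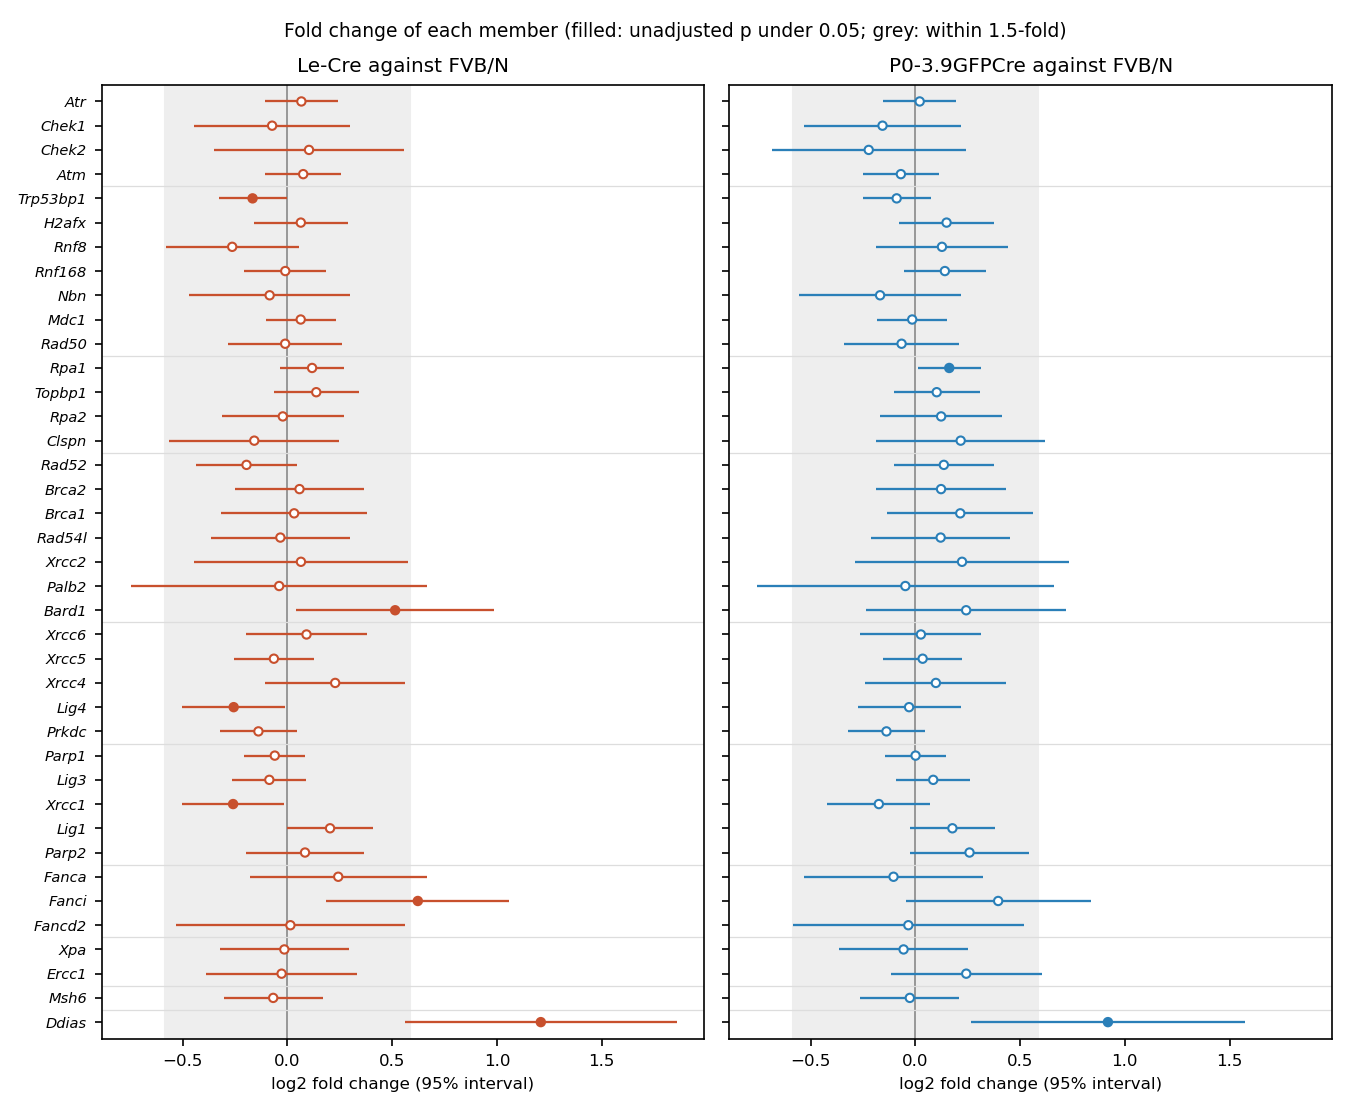
Log2 fold change of each gene with its 95% interval in *Le-Cre* (left) and *P0-3.9GFPCre* (right) against *FVB/N*, from edgeR on 3 pools per line, with filled points for an unadjusted p under 0.05 and a grey band for changes within 1.5-fold. Most intervals lie inside the band, and *Ddias* lies farthest to the right on both sides, at 1.21 and 0.92.

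*Ddias* (chr7:92857525-92874247, minus strand, GRCm38) encodes a protein named for suppressing apoptosis after DNA damage. It had the largest difference of the 39 genes from *FVB/N* in both Cre lines. Its normalised read count was 1.51, 0.903 and 1.88 CPM in *FVB/N*, 2.14, 2.66 and 3.37 CPM in *P0-3.9GFPCre* and 2.88, 3.32 and 3.80 CPM in *Le-Cre*. All 6 Cre pools were above the highest *FVB/N* pool, and the Cre lines overlapped with each other. These CPM rest on few reads, 40, 21 and 46 expected counts in *FVB/N*, 52, 55 and 75 in *P0-3.9GFPCre* and 81, 85 and 84 in *Le-Cre*. The log2 fold change against *FVB/N* was 1.21 in *Le-Cre* (SE 0.29, 95% interval 0.56 to 1.86, edgeR adjusted p = 0.281), or 2.31-fold. In *P0-3.9GFPCre* it was 0.92 (SE 0.30, interval 0.26 to 1.57, edgeR adjusted p = 0.637), or 1.89-fold. *Ddias* therefore did not pass the adjusted threshold in edgeR. In DESeq2 without a prior on the fold changes, the adjusted p in *Le-Cre* was 0.0340 with a log2 fold change of 1.21, and with the prior it was 0.0493 with a log2 fold change of 0.41, below the 1.5-fold limit. Over all alternatives the adjusted p in *Le-Cre* ranged from 0.0340 to 0.950, the latter after adjustment for the Y-linked share, where the log2 fold change was 0.99. Between the Cre lines the log2 difference was 0.29 (interval −0.34 to 0.92, edgeR adjusted p = 0.850). None of its exon bases are shared with another annotated gene. TPM, a level per length, gave 0.83, 0.65 and 0.92 in *FVB/N*, 1.77, 1.41 and 1.96 in *P0-3.9GFPCre* and 1.44, 2.45 and 2.47 in *Le-Cre*, again without overlap of *FVB/N* with either Cre line.

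Because *Ddias* stood apart from the other genes, the 250 bases before its RefSeq start site are shown (chr7:92874248-92874497, minus strand, GRCm38.p6, 5′ to 3′). Capitals mark the 1 CCAAT box, read here on the opposite strand as ATTGG, in this window.
*Ddias*: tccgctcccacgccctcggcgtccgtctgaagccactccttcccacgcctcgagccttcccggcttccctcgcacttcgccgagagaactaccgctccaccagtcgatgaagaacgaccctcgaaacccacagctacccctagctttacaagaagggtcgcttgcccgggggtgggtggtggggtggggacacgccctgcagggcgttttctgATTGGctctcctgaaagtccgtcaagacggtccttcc
The CCAAT box, searched for after the sequence had been read and on both strands, was present in 17 of the 33 genes of the set with a RefSeq promoter (51.5%) and in 41.1% of all 27025 genes in that table. The p53 response element was found in 0 of the 33 promoter windows of 300 bases and in 0.074% of all genes in that table, and no match says only that these letters are not in this window.

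**Figure D3:**
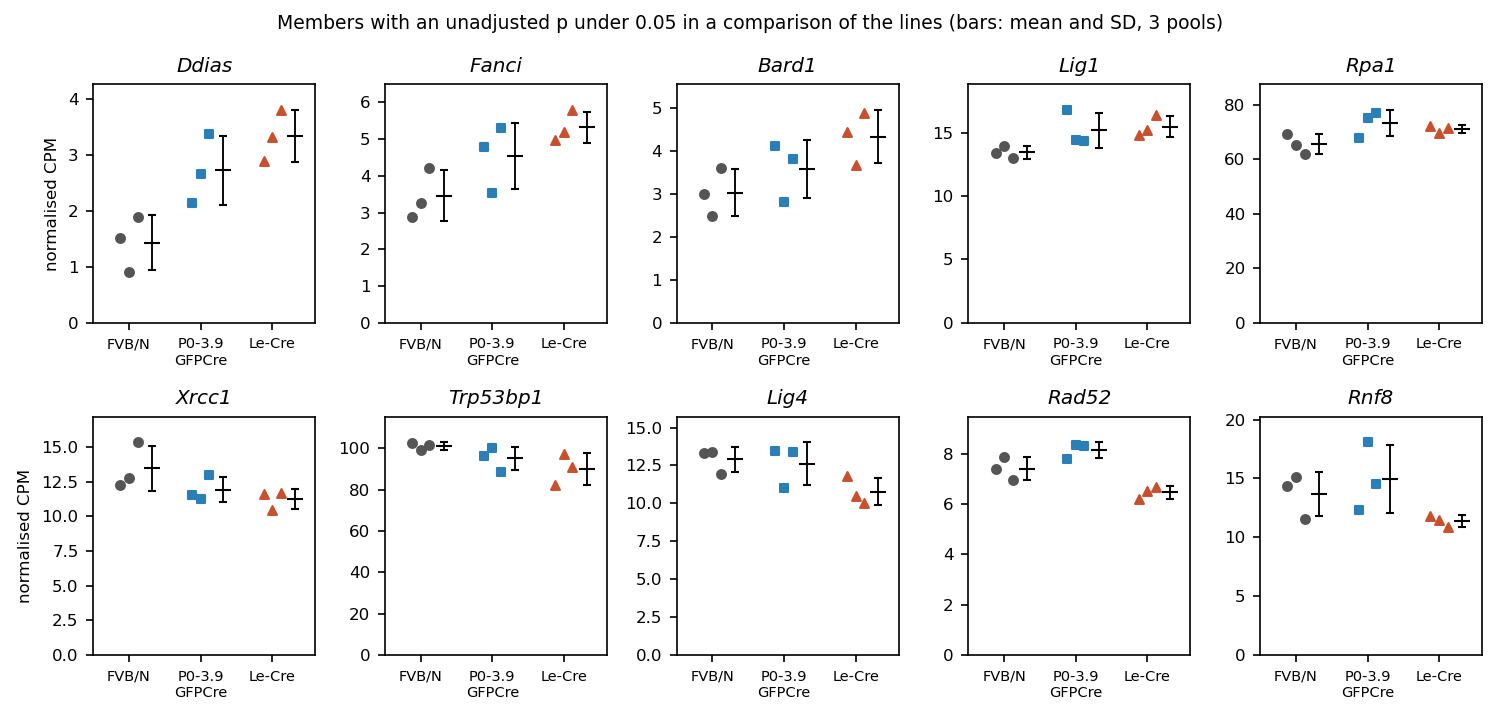
Normalised read counts (CPM) of the 10 genes with an unadjusted p under 0.05 in at least 1 comparison, 1 point per pool, with the mean and SD of 3 pools as bars and axes starting at 0. The *Ddias* pools of both Cre lines lie above all *FVB/N* pools (1.51, 0.903 and 1.88 CPM), and the *Le-Cre* pools of *Fanci* and *Bard1* lie above those of *FVB/N* as well.

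The damage kinases had similar read counts in all lines. *Atr*, the kinase of replication stress, had the highest count of the 4 and a narrow interval, with log2 fold changes of 0.07 in *Le-Cre* (interval −0.11 to 0.24) and 0.02 in *P0-3.9GFPCre* (interval −0.15 to 0.20). *Atm*, the kinase of double-strand breaks, was measured as closely, at 0.08 (interval −0.10 to 0.26) and −0.07 (interval −0.25 to 0.11). A change of 1.5-fold in whole-lens counts thus lay outside the interval for both kinases in both lines. In TPM, *Atr* had 9.06, 8.56 and 8.82 in *FVB/N*, 9.79, 12.14 and 9.90 in *P0-3.9GFPCre* and 12.55, 11.08 and 10.26 in *Le-Cre*. All 6 Cre pools were thus above the *FVB/N* pools by this measure, and limma on TPM gave 0.35 in *Le-Cre* and 0.26 in *P0-3.9GFPCre*. The *Atm* value in *Le-Cre* was 0.30 in limma on TPM. The checkpoint kinases downstream were less certain. *Chek1*, the effector of ATR, had the lowest value of the group in *Le-Cre*, −0.07, with an interval of −0.45 to 0.30. *Chek2*, the effector of ATM, had 7.08, 5.69 and 4.52 CPM in *Le-Cre*, 4.94, 3.63 and 5.25 CPM in *P0-3.9GFPCre* and 4.39, 5.72 and 6.06 CPM in *FVB/N*. Its pools overlapped in all comparisons, and its log2 difference of 0.33 between *Le-Cre* and *P0-3.9GFPCre* had an interval of −0.14 to 0.79.

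Among the genes of break sensing and chromatin marking, *Trp53bp1* was the only one with an unadjusted p under 0.05 against *FVB/N*. Its counts were 102, 99.1 and 102 CPM in *FVB/N*, 96.4, 100.04 and 88.7 CPM in *P0-3.9GFPCre* and 82.1, 97.4 and 90.8 CPM in *Le-Cre*. The *Le-Cre* pools were all below the *FVB/N* pools, by a small amount. The log2 fold change was −0.17 (SE 0.07, interval −0.33 to −0.00, edgeR adjusted p = 0.617) in *Le-Cre* and −0.09 in *P0-3.9GFPCre*. In *Le-Cre* it was −0.045 after adjustment for the Y-linked share, −0.10 without *Le-Cre* replicate 1 and −0.30 in limma on TPM. Of its exon bases, 15.04% overlap *Tubgcp4* on the other strand, for which the log2 fold change was 0.27 in *Le-Cre*. The sources used here do not say that counting used the strand, so reads of such shared exon bases are uncertain between the genes. *H2afx*, which is phosphorylated around breaks, had 17.6, 19.4 and 21.7 CPM in *FVB/N*, 22.3, 21.1 and 21.7 CPM in *P0-3.9GFPCre* and 23.1, 19.6 and 18.6 CPM in *Le-Cre*, with log2 fold changes of 0.06 and 0.15 in *Le-Cre* and *P0-3.9GFPCre*. Its pools overlapped. *Mdc1*, which reads phosphorylated H2AX, was nearly flat in counts, at 17.9, 18.7 and 18.1 CPM in *FVB/N* and 19.6, 18.8 and 18.7 CPM in *Le-Cre*. Its *Le-Cre* pools were above the *FVB/N* pools, yet the log2 fold change was only 0.06 (interval −0.10 to 0.23). *Nbn* and *Rad50*, of the complex that binds broken ends, had log2 fold changes of −0.09 and −0.01 in *Le-Cre* and −0.17 and −0.07 in *P0-3.9GFPCre*, with overlapping pools. *Nbn* was the lowest value of the group in *P0-3.9GFPCre*, and *Rnf8*, a ubiquitin ligase at breaks, was the lowest in *Le-Cre* at −0.26 (interval −0.58 to 0.05).

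In the replication checkpoint group, all 4 genes had positive values in *P0-3.9GFPCre* and 2 of 4 in *Le-Cre*. *Rpa1* had 69.2, 65.2 and 62.0 CPM in *FVB/N*, 67.9, 75 and 76.9 CPM in *P0-3.9GFPCre* and 72.1, 69.5 and 71.5 CPM in *Le-Cre*. The *Le-Cre* pools exceeded the *FVB/N* pools by little, and 1 *P0-3.9GFPCre* pool lay within the *FVB/N* range. The log2 fold change was 0.12 in *Le-Cre* (SE 0.07, edgeR adjusted p = 0.737) and 0.16 in *P0-3.9GFPCre* (SE 0.07, edgeR adjusted p = 0.693). Adjusted for the Y-linked share, the *Le-Cre* value was 0.07. The intervals ended at 0.27 and 0.31, so that a difference of 1.5-fold in whole-lens counts lay outside both. *Rpa2*, the middle subunit, had −0.02 and 0.12. *Topbp1*, an activator of ATR, was the highest of the group in *Le-Cre* at 0.14 (interval −0.07 to 0.34). *Clspn*, the adaptor between ATR and CHK1, was the lowest in *Le-Cre* at −0.16 (interval −0.56 to 0.25) and the highest in *P0-3.9GFPCre* at 0.22 (interval −0.19 to 0.62), with overlapping pools in each case.

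Among the homologous recombination genes, *Bard1* had the largest value in both lines. It had 2.99, 2.49 and 3.60 CPM in *FVB/N*, 4.11, 2.81 and 3.82 CPM in *P0-3.9GFPCre* and 4.45, 3.67 and 4.88 CPM in *Le-Cre*. The *Le-Cre* pools were above the *FVB/N* pools, the lowest by a narrow margin, and the *P0-3.9GFPCre* pools overlapped with both. The log2 fold change in *Le-Cre* was 0.51 (SE 0.21, interval 0.04 to 0.98, edgeR adjusted p = 0.591), or 1.43-fold, and 0.24 in *P0-3.9GFPCre*. Adjusted for the Y-linked share, the *Le-Cre* value was 0.24. *Brca1*, which forms a ubiquitin ligase with BARD1, had 0.03 in *Le-Cre* (interval −0.32 to 0.38) and 0.21 in *P0-3.9GFPCre*. *Brca2*, a mediator of strand invasion, had 0.06 and 0.12, *Rad54l*, a motor protein of strand exchange with 15.4% of its exon bases in *Lrrc41*, −0.03 and 0.12, and *Xrcc2*, which also acts in strand exchange, 0.06 and 0.22. *Palb2*, with a mean of 40 expected counts per pool, was the least well measured of the 39 genes, and its *Le-Cre* interval of −0.74 to 0.67 does not exclude a change of 1.5-fold in either direction. *Rad52*, which anneals complementary strands, had the lowest value of the group in *Le-Cre*, −0.20 (interval −0.44 to 0.05, and −0.065 in limma on TPM), and its *Le-Cre* pools lay below the *FVB/N* pools.

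In end joining, *Lig4*, the ligase that seals the break, had 13.4, 13.4 and 12 CPM in *FVB/N*, 13.4, 11 and 13.4 CPM in *P0-3.9GFPCre* and 11.8, 10.5 and 10.04 CPM in *Le-Cre*. All *Le-Cre* pools were below the *FVB/N* pools, the closest by a narrow margin, and the *P0-3.9GFPCre* pools overlapped with both. The log2 fold change in *Le-Cre* was −0.26 (SE 0.11, interval −0.50 to −0.01, edgeR adjusted p = 0.609), or 0.837-fold. Its scaffold *Xrcc4* had the highest value of the group in both lines, 0.23 (interval −0.11 to 0.56) and 0.10. *Xrcc5* and *Xrcc6*, which encode the Ku subunits that hold the ends, had −0.06 and 0.09 in *Le-Cre* and 0.04 and 0.03 in *P0-3.9GFPCre*. *Prkdc*, the catalytic subunit of DNA-PK, had −0.14 in both lines, the lowest of the group in *P0-3.9GFPCre*, with intervals of −0.32 to 0.04 and −0.32 to 0.05. Its *Le-Cre* and *P0-3.9GFPCre* values share the same *FVB/N* pools, which had 30.1, 32 and 36.2 CPM.

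In base excision and single-strand break repair, *Xrcc1* and *Lig1* had values of opposite sign in both lines. *Xrcc1*, the scaffold of single-strand break repair, had 12.3, 12.8 and 15.4 CPM in *FVB/N*, 11.6, 11.3 and 13 CPM in *P0-3.9GFPCre* and 11.6, 10.5 and 11.7 CPM in *Le-Cre*. The *Le-Cre* pools were below all *FVB/N* pools, and *P0-3.9GFPCre* overlapped with both. On the log2 scale the fold change was −0.26 in *Le-Cre* (SE 0.11, interval −0.50 to −0.01, edgeR adjusted p = 0.601) and −0.17 in *P0-3.9GFPCre*. Its size in *Le-Cre* depended on the fit, being −0.41 after adjustment for the Y-linked share and −0.15 without *FVB/N* replicate 3, the pool at 15.4 CPM. Without that pool the *P0-3.9GFPCre* value was −0.07. *Lig1*, which joins Okazaki fragments in replication and seals long repair patches, had 13.4, 13.9 and 13 CPM in *FVB/N*, 16.8, 14.4 and 14.3 CPM in *P0-3.9GFPCre* and 14.8, 15.2 and 16.4 CPM in *Le-Cre*. All 6 Cre pools were above the *FVB/N* pools. On the log2 scale the fold change was 0.20 in *Le-Cre* (SE 0.09, interval −0.00 to 0.41, edgeR adjusted p = 0.629) and 0.18 in *P0-3.9GFPCre* (SE 0.09, interval −0.03 to 0.38, edgeR adjusted p = 0.763), the latter being 0.10 without *P0-3.9GFPCre* replicate 1. *Parp1*, with about 1663 expected counts per pool, was among the best measured genes, with −0.06 (interval −0.21 to 0.09) and 0.00 (interval −0.14 to 0.15). *Parp2* was the highest of the group in *P0-3.9GFPCre* at 0.26 (interval −0.02 to 0.54) and had 0.08 in *Le-Cre*. *Lig3* had −0.09 and 0.09, and 25.1% of its exon bases overlap *Rffl* on the other strand.

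The Fanconi anaemia genes, whose products act on DNA interstrand crosslinks and stalled forks, included the second largest value of the set. *Fanci*, a subunit of the clamp that is ubiquitinated at crosslinks, had 2.87, 3.27 and 4.22 CPM in *FVB/N*, 4.77, 3.54 and 5.30 CPM in *P0-3.9GFPCre* and 4.98, 5.19 and 5.79 CPM in *Le-Cre*. The *Le-Cre* pools were above all *FVB/N* pools, and 1 *P0-3.9GFPCre* pool lay within the *FVB/N* range. Its log2 fold change was 0.62 in *Le-Cre* (SE 0.20, interval 0.18 to 1.06, edgeR adjusted p = 0.451), or 1.54-fold, and 0.40 in *P0-3.9GFPCre* (SE 0.20, edgeR adjusted p = 0.761). With the DESeq2 prior these were 0.31 and 0.19, and in *P0-3.9GFPCre* limma on TPM gave 0.65. Of its exon bases 15.95% overlap *Polg* on the other strand, for which the log2 fold changes were −0.06 and 0.05. *Fancd2*, the partner of FANCI in that clamp, had 4.08, 4.73 and 3.03 CPM in *FVB/N*, 4.40, 4.02 and 3.14 CPM in *P0-3.9GFPCre* and 5.16, 3.90 and 2.85 CPM in *Le-Cre*, with log2 fold changes of 0.01 (interval −0.53 to 0.56) and −0.03. *Fanca*, of the complex that attaches the ubiquitin, had 3.74, 3.91 and 3.52 CPM in *FVB/N* and 4.16, 5.03 and 4.03 CPM in *Le-Cre*, without overlap, and a log2 fold change of 0.24 (interval −0.18 to 0.66). In *P0-3.9GFPCre* it was the lowest of the group at −0.10, and 10.5% of its exon bases overlap *Zfp276*.

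The nucleotide excision genes *Ercc1*, a subunit of the incision nuclease, and *Xpa* had log2 fold changes of −0.03 and −0.01 in *Le-Cre* and of 0.24 and −0.06 in *P0-3.9GFPCre*. *Ercc1* was uneven in *P0-3.9GFPCre*, at 8.23, 10.6 and 6.91 CPM, against 7.68, 6.71 and 7.29 CPM in *FVB/N*, and without *P0-3.9GFPCre* replicate 2 its value was 0.07. *Msh6*, a mismatch recognition protein, had −0.07 (interval −0.30 to 0.17) and −0.03 (interval −0.26 to 0.21). Pools overlapped for these 3 genes in all comparisons.

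Setting *Le-Cre* directly against *P0-3.9GFPCre* asked whether these lines differed from each other in the damage genes. Of the 39 genes, 0 were called by edgeR (0% of all genes) or by DESeq2 with or without a prior (0.0285% and 0.254% of the genes with an adjusted p), and 2 had an unadjusted p under 0.05 (7.88% of all genes). In 4 genes the pools of the lines did not overlap (14.1% of all genes), and all 4 were lower in *Le-Cre*. The median log2 difference was −0.04, and the interval lay within 1.5-fold for 28 of 39 genes (58.5% of all genes, again not matched for read depth). *Rad52* had 7.77, 8.33 and 8.30 CPM in *P0-3.9GFPCre* against 6.19, 6.51 and 6.69 CPM in *Le-Cre*, with *FVB/N* at 7.38, 7.87 and 6.96 CPM. The *FVB/N* pools lay above all *Le-Cre* pools and overlapped with those of *P0-3.9GFPCre*. Its log2 difference was −0.33 (SE 0.11, interval −0.57 to −0.09, edgeR adjusted p = 0.489). *Rnf8* had 12.3, 18.1 and 14.5 CPM in *P0-3.9GFPCre* against 11.8, 11.5 and 10.9 CPM in *Le-Cre*, a log2 difference of −0.39 (SE 0.14, interval −0.71 to −0.07, edgeR adjusted p = 0.531). Without *P0-3.9GFPCre* replicate 2, the pool at 18.1 CPM, the difference was −0.24. The gap in *Rnf8* was narrow, as the lowest *P0-3.9GFPCre* pool lay next to the *Le-Cre* pools, and 13.2% of its exon bases are shared with *Gm28043* on the same strand. *Rnf168*, the ubiquitin ligase that acts after RNF8, had 21.4, 20.3 and 21.5 CPM against 20.1, 18.1 and 18.7 CPM, a log2 difference of −0.15. *Xrcc5* had 20.73, 18.5 and 19.0 CPM against 18.4, 17.6 and 18.4 CPM, a log2 difference of −0.10. In both of these genes the gap between the lines was narrow. The largest positive value was that of *Fanca*, 0.35 (interval −0.08 to 0.77), with overlapping pools.

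Level per length and read count did not always give the same picture. TPM divides the count by the effective length, the mean transcript length in bases that RSEM assigned to a gene in a pool from the estimated shares of its isoforms. Over the 39 genes the longest effective length among the 9 pools exceeded the shortest by a median of 1.45-fold, and by more than 1.5-fold in 17 genes. *Clspn* varied most, by 2.74-fold. Its effective length was 1814, 3105 and 2551 bases in *FVB/N*, 2099, 3104 and 2504 bases in *P0-3.9GFPCre* and 4977, 3625 and 4344 bases in *Le-Cre*. Its TPM was accordingly 2.77, 1.53 and 1.85 in *FVB/N* and 0.98, 1.26 and 0.90 in *Le-Cre*, without overlap, while its counts were 4.77, 4.43 and 4.67 CPM and 4.59, 4.02 and 3.80 CPM, with overlap. The TPM ratio of *Le-Cre* to *FVB/N* was 0.51 and the CPM ratio 0.89. For *Mdc1* the effective length was 4524, 4891 and 7285 bases in *FVB/N*, 4791, 3532 and 3891 bases in *P0-3.9GFPCre* and 7285, 5625 and 7285 bases in *Le-Cre*, and its TPM ratio of *Le-Cre* to *FVB/N* was 0.86 where its CPM ratio was 1.04. TPM and CPM differed in the direction of *Le-Cre* against *FVB/N* for 8 of 39 genes, and of *P0-3.9GFPCre* against *FVB/N* for 10. Whether the lines used different isoforms of these genes was not tested.

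**Figure D4:**
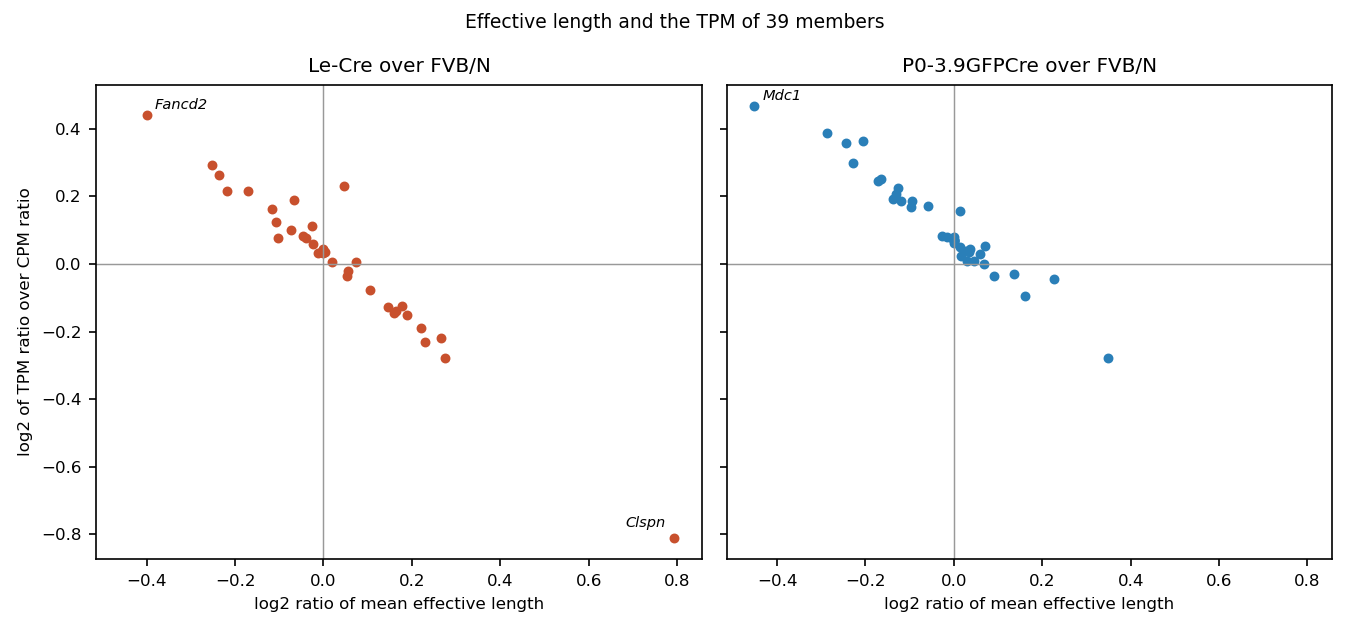
For each of the 39 genes, the log2 ratio of the TPM ratio to the CPM ratio between a Cre line and *FVB/N* (vertical) against the log2 ratio of the mean effective length (horizontal), 1 point per gene. The descending line follows from how TPM is computed, and the plot shows how far the lengths differ, with *Clspn* in *Le-Cre* farthest out, at an effective length 1.73 times that of *FVB/N*.

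Promoters were read for 33 of the 39 genes from a RefSeq table of 300 bases around each start site (250 before and 50 after, GRCm38.p6), and *Prkdc*, *H2afx*, *Nbn*, *Rad50*, *Xrcc2* and *Fancd2* were not among them. E2F factors drive many genes of DNA replication at the entry to S phase, and the motif searched was TTTCCCGC, TTTCGCGC, TTTGCCGC or TTTGGCGC on either strand. It was present in 9 of the 33 genes (27.3%), against 2.6% of all 27025 genes in the table. The CHR motif of late cell cycle genes, TTTGAA on either strand, was present in 2 of 33 (*Bard1* and *Rnf8*), against 20.2% of all genes. The rule that chose the genes used no sequence. The table was not narrowed to genes expressed in the lens or matched for base composition. These shares, and those of the CCAAT box, therefore do not show enrichment or depletion, which was not tested. The 9 sites are shown with 10 bases on either side, 5′ to 3′ on the strand of the gene, with the motif in capitals, since they let the counts of their genes be read beside those without the motif. They lie at chr1:71103164-71103191 (*Bard1*, minus strand), chr5:150522443-150522470 (*Brca2*), chr5:110839821-110839848 (*Chek2*), chr4:126556991-126557018 (*Clspn*), chr7:13278842-13278869 (*Lig1*), chr17:35841472-35841499 (*Mdc1*), chr17:87975055-87975082 (*Msh6*), chr9:103305188-103305215 (*Topbp1*) and chr15:82016313-82016340 (*Xrcc6*), all but the first on the plus strand.
*Bard1*: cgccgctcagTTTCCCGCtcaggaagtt
*Brca2*: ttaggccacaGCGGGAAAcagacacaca
*Chek2*: gggattagccGCGGGAAAccaagacgtc
*Clspn*: ccgcgtctggGCGCGAAAgctcgaactt
*Lig1*: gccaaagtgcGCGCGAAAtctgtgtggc
*Mdc1*: cttcagcctgTTTCCCGCcggtagccgc
*Msh6*: tcctcccgacTTTCCCGCcagcggcggc
*Topbp1*: cgctcggttgGCGCGAAAgtcggttccc
*Xrcc6*: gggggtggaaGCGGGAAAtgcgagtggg
Over these 9 genes the median log2 fold change was 0.09 in *Le-Cre* (7 of 9 above 0, from −0.16 for *Clspn* to 0.51 for *Bard1*) and 0.10 in *P0-3.9GFPCre* (6 of 9 above 0). Over the 24 genes with a promoter but without the motif it was −0.03 in *Le-Cre* (9 of 24 above 0) and 0.09 in *P0-3.9GFPCre* (16 of 24 above 0). These are descriptions of few genes, and the difference between the groups of promoters was not tested.

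Other genes of the same pathways, 72 in the deposited data and none of them in the set, were read for comparison. All but *Rad51b* could be tested, which left 71. None of the 71 was called in any comparison by edgeR. An unadjusted p under 0.05 was found for 4 of them in *Le-Cre* and 5 in *P0-3.9GFPCre* against *FVB/N* (7.94% and 6.81% of all genes). The median log2 fold changes were 0.05 and 0.02. *Rad54b*, a relative of *Rad54l* in strand exchange, had the largest value, with 1.70, 2.11 and 2.83 CPM in *FVB/N*, 3.50, 3.29 and 3.01 CPM in *P0-3.9GFPCre* and 2.99, 4.02 and 4.12 CPM in *Le-Cre*. Both Cre lines were above *FVB/N* in all pools, at log2 fold changes of 0.56 (edgeR adjusted p = 0.684) and 0.74 (edgeR adjusted p = 0.439). *Exo1*, a resecting nuclease, had 0.40 in *Le-Cre* (edgeR adjusted p = 0.591), and *Tipin*, of the fork protection complex, 0.29 (edgeR adjusted p = 0.599). In *P0-3.9GFPCre*, *Timeless*, the partner of TIPIN, had −0.42 (edgeR adjusted p = 0.651), while *Tipin*, *Hus1*, a damage clamp subunit, and *Ercc5*, an excision nuclease, had 0.30, 0.28 and 0.24. *Timeless* and *Wrn*, a helicase, were higher in *Le-Cre* than in *P0-3.9GFPCre*, by 0.57 and 0.43 on the log2 scale (edgeR adjusted p = 0.393 for each).

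Genes of proliferation were read as well, because many repair genes are made in S phase. Of the 20, all were detected and none was called. Their summed level was 211 to 217 TPM in *FVB/N*, 225 to 258 TPM in *P0-3.9GFPCre* and 235 to 260 TPM in *Le-Cre*. The TPM sums of both Cre lines were thus above those of *FVB/N*. In counts, pools did not overlap for 8 of 20 genes in *Le-Cre* (13.5% of all genes) and 1 in *P0-3.9GFPCre* (12% of all genes). With the Cre lines joined, this held for 1 of 20 (3.51% of all genes). The median log2 fold change was 0.19 in *Le-Cre* (16 of 20 above 0, 6 with an unadjusted p under 0.05). In *P0-3.9GFPCre* it was 0.15 (16 of 20 above 0, 2 with an unadjusted p under 0.05). Of all genes, 7.94% and 6.81% had such a p in these comparisons. *Cdk1*, the mitotic kinase, had 22.2, 21.6 and 25.6 CPM in *FVB/N*, 30.8, 26.7 and 30.2 CPM in *P0-3.9GFPCre* and 30.1, 29.1 and 31.2 CPM in *Le-Cre*, with log2 fold changes of 0.38 (edgeR adjusted p = 0.236) and 0.34 (edgeR adjusted p = 0.590) in *Le-Cre* and *P0-3.9GFPCre*. *Ccna2*, *Rrm2*, *Top2a* and *E2f1* had values of 0.26 to 0.42 in *Le-Cre*. In *P0-3.9GFPCre*, *Mki67*, the gene of the Ki-67 antigen, had 0.25. The part of proliferation in the differences of the damage genes was not tested.

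Transcripts induced by p53, which damage signalling activates, were the third comparison, from a list of 23 chosen with earlier results of these data known and therefore no independent evidence. In *Le-Cre*, 2 of 23 were called (0.0643% of all genes), and the median log2 fold change was 0.29. An unadjusted p under 0.05 was found for 10, all with higher values (7.94% of all genes). *Cdkn1a*, the CDK inhibitor p21, rose from 1.29, 1.20 and 1.19 CPM in *FVB/N* to 11.4, 11 and 11.8 CPM in *Le-Cre* (log2 fold change 3.21, SE 0.36, edgeR adjusted p = 0.0331). *Trp53inp1*, a p53 cofactor in stress, rose by 1.04 (SE 0.14, edgeR adjusted p = 0.0331). *Eda2r*, a death receptor, *Perp*, a desmosome protein, and *Phlda3*, an AKT inhibitor, had log2 fold changes of 3.68, 0.59 and 1.47 and did not pass (edgeR adjusted p = 0.0965, 0.107 and 0.182). In *P0-3.9GFPCre* 0 of 23 were called and 6 had an unadjusted p under 0.05 (6.81% of all genes), with a median of 0.14. *Cdkn1a* had 3.74, 1.5 and 5.75 CPM in *P0-3.9GFPCre* (log2 fold change 1.58, edgeR adjusted p = 0.590). *Gadd45a*, a growth arrest gene, had −0.54 there (edgeR adjusted p = 0.590). Beside these, the 39 damage genes had 0 called and a median of −0.01 in *Le-Cre*. An unadjusted p under 0.05 was found there for 6 of the 39, 3 higher and 3 lower. Pools did not overlap in 11 of the 39 (13.5% of all genes). Whether the lists differed from each other was not tested.

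**Figure D5:**
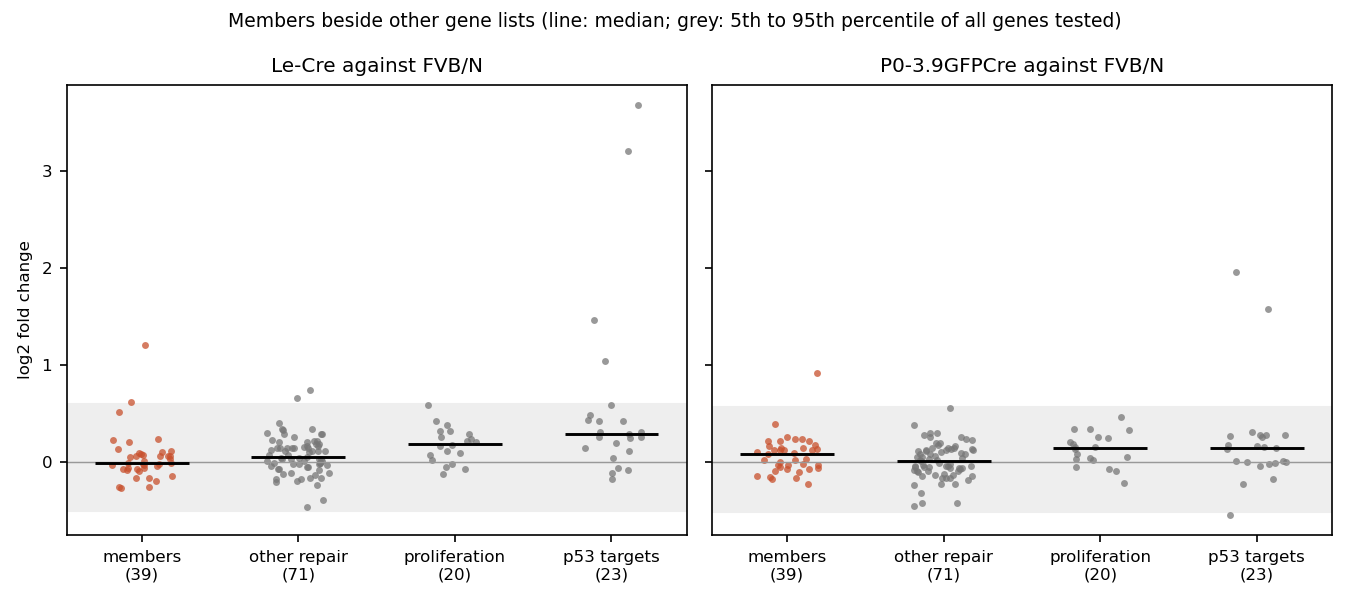
Log2 fold change of each gene against *FVB/N* in *Le-Cre* (left) and *P0-3.9GFPCre* (right) for the 39 damage genes, 71 other repair genes, 20 proliferation genes and 23 p53 targets, 1 point per gene, with the median of each list as a line and the 5th to 95th percentile of all tested genes in grey. The damage genes lie around 0 within the grey band except *Ddias* and, in *Le-Cre*, *Fanci*, whereas several p53 targets reach values of 1 to 3.68 in *Le-Cre*.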

How the data were processed

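Whole lenses of newborn mice were pooled by line (6 lenses from 3 mice), and 3 pools of each line were sequenced as single-end reads of 51 bases. Per the labels and the study's methods, reads were trimmed with Trimmomatic 0.36, aligned to GRCm38 with GSNAP and quantified with RSEM 1.3.0, and the study tested with DESeq2 1.10.1. The annotation release is not given in the sources used here. The deposited tables hold, per gene and pool, the expected count and the TPM that the authors obtained from RSEM, each with a posterior mean and SD, the latter a score of estimation error in the deposited files, and the effective length in bases.

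From these files, expected counts were rounded to whole numbers, genes were kept by edgeR's filterByExpr (minimum count 10, minimum total 15), libraries were scaled by TMM, and all 9 pools entered 1 quasi-likelihood fit by line (R 4.3.3, edgeR 4.0.16) in place of the study's DESeq2. Genes were called at 1.5-fold and a Benjamini-Hochberg adjusted p of at most 0.05. The SE was taken from the log2 fold change and the F statistic. Alternatives used DESeq2 1.42.0, limma 3.58.1 on log2(TPM + 0.1), other scalings and filters, the Y-linked share, a replicate block and each pool left out. The scripts were tested on simulated data. Single-gene permutation of 3 against 3 pools cannot give a two-sided p below 0.1 and was not used. Per the labels the pools are biological replicates, and p-values measure the spread between pools, not between single mice.

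The genes named are, per comparison, those called, those with an unadjusted p under 0.05, those whose pools do not overlap, the highest and lowest of each role, and the 6 highest and 4 lowest in *FVB/N* TPM. From the other lists, those called and up to 5 with the smallest unadjusted p under 0.05 were eligible. The genes and lists were chosen with earlier results of these data known. Coordinates are from GENCODE on GRCm38, and promoters from RefSeq on GRCm38.p6. The description of the third *FVB/N* pool carries another number than its title, and its title was followed. Depth ranged from 20670968 to 28098059 expected counts per pool. An eligible gene of the other repair genes is not reported here.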

Additional observations from a re-analysis of the deposited data

How the results depend on the processing

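The number of damage genes called was 0 in all comparisons under most alternatives, including every fit with 1 pool left out (0 to 0 called). It was 1, *Ddias*, in *Le-Cre* against *FVB/N* with DESeq2 without a prior (log2 fold change 1.21, adjusted p = 0.0340) and without a filter on low counts (1.21, adjusted p = 0.0389), and in both Cre lines against *FVB/N* with DESeq2 without a prior (1.07, adjusted p = 0.0392). The cause was not tested. DESeq2 gave no adjusted p for *Ddias* in *P0-3.9GFPCre*, so it could not be called there. Leaving out 1 pool, the *Ddias* log2 fold change in *Le-Cre* was 0.97 to 1.45, lowest without *FVB/N* replicate 2. *Mdc1* in *Le-Cre* had −0.19 in limma on log2(TPM + 0.1), the reverse of its count-based value. The median over the 39 genes moved in *Le-Cre* to 0.0075 with upper-quartile scaling and 0.0387 with the Y-linked share, in *P0-3.9GFPCre* to 0.0586 with the DESeq2 prior and 0.178 in limma, between the Cre lines to −0.0992 in limma and −0.0686 with the Y-linked share, and in both lines together to 0.0845 and 0.0495. With 1 pool left out it ranged from −0.0080 to 0.0328, 0.0413 to 0.0879, −0.0581 to −0.0137 and 0.0205 to 0.0478, in that order. Genes with an unadjusted p under 0.05 numbered 2 to 7, 1 to 4, 1 to 5 and 2 to 6 over all alternatives.

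By replicate number, residuals correlated at a mean of 0.030 over 9 matched pairs (3 over 0.1), against −0.015 over 18 unmatched pairs (1 over 0.1). Between the Cre lines, matched pools gave 0.103, 0.102 and 0.046, and unmatched pools −0.086 to −0.017. With *P0-3.9GFPCre* and *Le-Cre*, matched *FVB/N* pools gave −0.079 and −0.104 (replicate 1), 0.039 and 0.120 (replicate 2), and −0.017 and 0.058 (replicate 3). *FVB/N* replicate 3 gave 0.073 and 0.116 with their replicate 1. The residuals are deviations from each line's mean, so matched and unmatched values must nearly cancel and unmatched pairs are no independent baseline. Whether pools were handled in sets was not tested. With the replicate block 0 genes were called in all 4 comparisons and 5, 1, 3 and 4 had an unadjusted p under 0.05, where *Ddias* in *Le-Cre* had 1.23 (adjusted p = 0.277). Depth limits the lowest genes, such as *Palb2* with 26 to 51 expected counts per pool.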
